A study of Homo sapiens with 8 samples.

Results

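Homologous recombination and Fanconi repair were followed through 38 genes in 2 HER2+ breast cancer cell lines treated with a HER2 inhibitor, a BET bromodomain inhibitor or both drugs. The 38 genes were chosen by name, as a list of factors of both pathways, with earlier results of these data known. All 38 were found by gene symbol among the 20531 genes of the deposited tables. All 38 were also among the 14429 genes kept, whose value was 10 or above in 1 library or more.

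Poly(A) RNA was sequenced from SKBR-3, which lacks the estrogen and progesterone receptors, and from BT474m1, which expresses both. The lines were given the vehicle DMSO, 300 nM lapatinib (which blocks the kinase activity of HER2 and EGFR), 300 nM JQ1 (which displaces BET proteins from acetylated chromatin) or 300 nM of each, for 48 h per the labels. The study's methods give a shorter time for its cell lines, while a legend to its sequencing values in SKBR-3 gives that of the labels, which was followed. Each of the 8 groups held 1 library, so no difference within a line could be set against a spread between cultures or tested. No model across the lines was fitted.

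Values are normalised read counts, which the authors scaled to an upper quartile of 1000 over each library's genes above 0. A change is a log2 fold change between log2(value + 1) values. A gene is called lowered or raised at 2-fold or more. The 95% intervals are exact Clopper-Pearson intervals from the reads behind each value and cover counting error only. They refer to the ratio of the values without the added 1, so at low values they do not belong exactly to the change beside them. The libraries held 21420113 to 34112379 reads on genes. Of 6 luminal epithelial markers, 5 were at 3299.7 or more in every library, and CDH1 was at 2.58 to 15.1 in SKBR-3 and at 19413.5 or more in BT474m1. The 3 leukocyte markers did not exceed 3.58. Of the fibroblast markers, COL1A1 reached 1253 and the other 3 stayed at 8.02 or less. Of the endothelial markers, PECAM1 did not exceed 0.583, CDH5 reached 126.0 and VWF reached 153. RNA was measured over the whole culture, so that fewer cells of a kind and less RNA per cell cannot be told apart.

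Homologous recombination mends DNA broken across both strands by copying the intact sister chromatid, and so works mainly in S and G2 phase. The broken end is trimmed to a single strand, BRCA2 and its partners prepare it to pair with the sister, and helicases and nucleases later take the joined molecules apart. The Fanconi anemia pathway opens crosslinks between the strands: its core complex attaches ubiquitin to FANCD2 and FANCI, and the repair is finished by recombination. Inherited loss of several of these genes predisposes to breast cancer or causes Fanconi anemia.

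Of the 38 genes, lapatinib lowered 27 in SKBR-3 and 25 in BT474m1 by 2-fold or more, and it raised 0 in either line. Over all 14429 genes, 9.44% were lowered in SKBR-3 and 8.06% in BT474m1, while 11.1% and 14% were raised. The median change of the 38 genes was -1.81 in SKBR-3 and -1.90 in BT474m1, beside 0.05 and 0.07 over all genes. A fall of 4-fold or more was seen for 18 of the genes in SKBR-3 and 17 in BT474m1, beside 3.1% and 3.24% of all genes. In both lines 24 genes were lowered 2-fold and 15 were lowered 4-fold, beside 4.15% and 1.78% of all genes. Another 10 were under 2-fold in both lines: ATM, ATR, FANCF, FANCL, MRE11A, MUS81, NBN, PALB2, RAD50 and WRN. The remaining 4 were lowered in 1 line alone, RAD51C, RBBP8 and UBE2T in SKBR-3 and DMC1 in BT474m1.

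**Figure D1:**
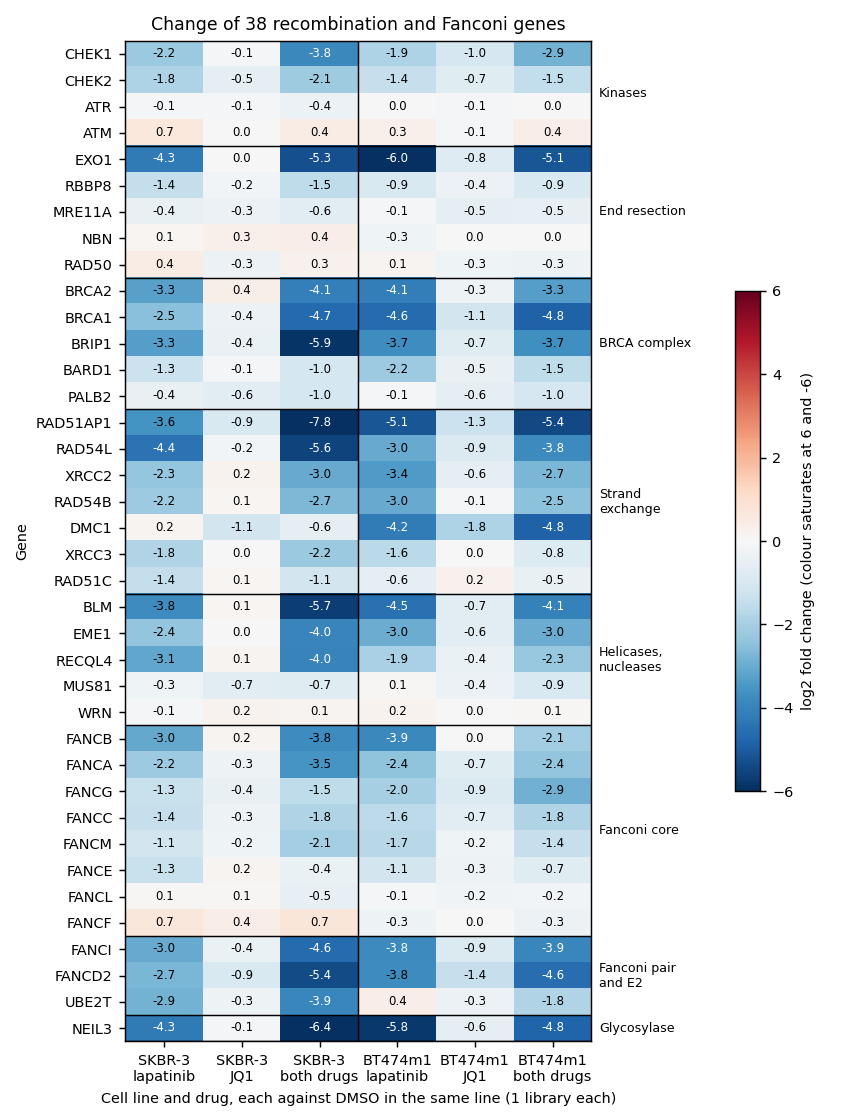
Log2 fold change of each of the 38 genes (rows, grouped by role) with lapatinib, JQ1 or both drugs against DMSO in SKBR-3 and BT474m1 (columns, 1 library each); blue is lower, red is higher and the colour saturates at 6 and -6. Lapatinib with or without JQ1 gives blue cells for most rows, down to -7.83 for RAD51AP1 in SKBR-3, and the JQ1 columns are pale.

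The start regions of the genes that changed most and least with lapatinib are shown so that genes that moved together can be set beside genes that did not. Each is the 300 bases from 250 before to 50 after the annotated start, from RefSeq on GRCh38.p14, 5′ to 3′ on the gene's own strand. A promoter was given for 33 of the 38 genes, with 42 promoters in all. NEIL3 lies at chr4:177309624-177309923 on the plus strand, EXO1 at chr1:241847954-241848253 on the plus strand and BLM at chr15:90717096-90717395 on the plus strand, and these are the 3 that fell most by the smaller fall of the lines. EXO1 has more than 1 start in the table and the first is shown. FANCL lies at chr2:58241276-58241575 on the minus strand, ATR at chr3:142578684-142578983 on the minus strand and MUS81 at chr11:65860183-65860482 on the plus strand, and these are the 3 that changed least once WRN and NBN are set aside, which changed less than MUS81 but were not eligible to be shown. Capitals mark matches, on either strand, to 3 motifs known from cell cycle promoters: an E2F site (TTTCCCGC, TTTCGCGC, TTTGCCGC or TTTGGCGC), a CHR element (TTTGAA or TTCGAA) and a CCAAT box (CCAAT, which reads ATTGG on the other strand). No letters of one motif overlap those of another.
NEIL3: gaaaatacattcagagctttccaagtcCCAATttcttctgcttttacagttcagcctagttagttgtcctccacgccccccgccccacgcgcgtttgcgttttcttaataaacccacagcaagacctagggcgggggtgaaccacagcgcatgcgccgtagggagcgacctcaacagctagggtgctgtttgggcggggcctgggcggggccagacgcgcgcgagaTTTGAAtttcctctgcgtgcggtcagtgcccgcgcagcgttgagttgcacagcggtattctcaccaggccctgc
EXO1: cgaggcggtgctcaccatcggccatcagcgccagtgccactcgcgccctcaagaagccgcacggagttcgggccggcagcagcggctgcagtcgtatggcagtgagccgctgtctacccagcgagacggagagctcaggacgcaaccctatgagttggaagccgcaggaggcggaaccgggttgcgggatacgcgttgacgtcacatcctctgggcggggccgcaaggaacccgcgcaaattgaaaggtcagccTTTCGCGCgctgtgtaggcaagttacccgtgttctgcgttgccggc
BLM: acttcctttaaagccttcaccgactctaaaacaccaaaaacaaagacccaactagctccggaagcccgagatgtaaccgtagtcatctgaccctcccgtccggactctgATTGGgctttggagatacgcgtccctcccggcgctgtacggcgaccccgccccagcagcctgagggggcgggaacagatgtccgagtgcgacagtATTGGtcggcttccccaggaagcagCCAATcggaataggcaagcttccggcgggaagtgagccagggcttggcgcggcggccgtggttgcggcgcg
FANCL: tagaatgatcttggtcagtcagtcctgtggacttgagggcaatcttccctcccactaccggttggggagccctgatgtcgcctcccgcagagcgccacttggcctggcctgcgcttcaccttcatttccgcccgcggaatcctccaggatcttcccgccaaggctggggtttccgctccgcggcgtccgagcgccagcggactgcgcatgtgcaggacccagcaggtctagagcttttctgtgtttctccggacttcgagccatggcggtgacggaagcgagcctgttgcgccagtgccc
ATR: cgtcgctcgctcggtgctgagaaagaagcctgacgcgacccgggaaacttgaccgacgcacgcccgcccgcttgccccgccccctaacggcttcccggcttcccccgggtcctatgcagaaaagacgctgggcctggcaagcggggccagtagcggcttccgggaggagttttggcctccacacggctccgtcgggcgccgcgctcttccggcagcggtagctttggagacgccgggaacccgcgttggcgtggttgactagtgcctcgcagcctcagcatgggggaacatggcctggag
MUS81: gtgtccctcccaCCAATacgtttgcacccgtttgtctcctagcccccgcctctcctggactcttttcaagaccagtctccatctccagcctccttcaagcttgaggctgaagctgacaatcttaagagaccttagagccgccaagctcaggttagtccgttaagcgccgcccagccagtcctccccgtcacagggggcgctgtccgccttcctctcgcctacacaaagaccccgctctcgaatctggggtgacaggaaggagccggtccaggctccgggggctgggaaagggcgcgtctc

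EXO1 holds an E2F match 5 bases after the start, NEIL3 a CHR match at position -24 from it and a CCAAT box, and BLM 3 CCAAT boxes. The EXO1 promoter that is not shown holds none of the 3 motifs. MUS81 holds 1 CCAAT box, and FANCL and ATR hold none of the 3 motifs. Over all 42 promoters of the 38 genes, 6 (14.3%) held an E2F match, those of DMC1, EXO1, FANCA, FANCC, FANCD2 and XRCC2, beside 4.72% of the 16645 promoters of genes kept and 3.31% of all 35116. Of the 27 promoters of genes lowered in both lines 5 (18.5%) held it, and 0 of the 9 promoters of genes under 2-fold in both. For the CCAAT box these shares were 51.9% and 66.7%, and for the CHR element 11.1% and 11.1%. The CHR element was in 11.9% of the genes' promoters and 12.0% of those kept, and the CCAAT box in 50% and 34.4%. Across all 35116 promoters the CHR element was in 16.4% and the CCAAT box in 34.6%. These are matches of letters in 1 window per start, and binding was not measured here.

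The kinases that sense damage split with lapatinib. CHEK1, which halts the cycle downstream of ATR, was at 827 with DMSO, 175 under lapatinib, 755 under JQ1 and 56.4 under the combination in SKBR-3, and at 631, 172, 313 and 86.3 in BT474m1. CHEK2, the kinase downstream of ATM, was at 372, 103, 257 and 84.6 in SKBR-3 and at 290.4, 111, 178 and 104 in BT474m1. In both lines the libraries with lapatinib lay below those without it, for either kinase. Lapatinib lowered CHEK1 by a log2 change of -2.23 (-2.45 to -2.03) in SKBR-3 and -1.87 (-2.06 to -1.69) in BT474m1, and CHEK2 by -1.84 and -1.38. CHEK2 has pseudogene copies, so its level is uncertain where reads were shared.

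ATM and ATR, the apical kinases that answer broken ends and stalled forks, stayed under 2-fold with every treatment. ATM was at 868 with DMSO, 1365 under lapatinib, 873 under JQ1 and 1180.4 under the combination in SKBR-3, and at 497, 623, 476 and 665 in BT474m1. Its level was higher in the lapatinib libraries than in the others, with a log2 change of 0.65 (0.55 to 0.76) in SKBR-3 and 0.33 (0.20 to 0.45) in BT474m1. ATR was at 1246, 1137, 1193 and 964 in SKBR-3 and at 965, 959.6, 916 and 945 in BT474m1, a change with lapatinib of -0.13 and -0.01.

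Among the genes that trim broken ends, EXO1 stood apart from the rest. EXO1, an exonuclease that extends the trimmed strand, was at 864 with DMSO, 44.4 under lapatinib, 856 under JQ1 and 21.3 under the combination in SKBR-3, and at 1022, 14.5, 599 and 28.6 in BT474m1. The libraries with lapatinib lay far below those without it, and lapatinib lowered EXO1 by -4.25 (-4.69 to -3.90) in SKBR-3 and -6.05 (-6.79 to -5.57) in BT474m1. RBBP8, which encodes CtIP and starts the trimming, changed by -1.45 in SKBR-3 and -0.90 in BT474m1.

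The MRE11A, RAD50 and NBN proteins form the complex that first holds a broken end, and all 3 genes stayed under 2-fold with every treatment in both lines. RAD50 was at 1026 with DMSO, 1389 under lapatinib, 808 under JQ1 and 1239 under the combination in SKBR-3, and at 1517, 1679, 1254 and 1245 in BT474m1. NBN was at 14078, 15164, 17651 and 18326 in SKBR-3 and at 3049, 2562, 3005 and 3061 in BT474m1. Both genes stayed within 1.5-fold of DMSO with every treatment in both lines. MRE11A ran from 583 to 893 in SKBR-3, against 395 to 578 in BT474m1.

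Within the BRCA complex lapatinib lowered BRCA1, BRCA2, BARD1 and BRIP1 in both lines, and PALB2 stayed under 2-fold. BRCA1, a ubiquitin ligase that steers breaks into recombination, was at 526 with DMSO, 92.6 under lapatinib, 409.9 under JQ1 and 19.9 under the combination in SKBR-3, and at 774, 30.1, 365 and 26.2 in BT474m1. The lapatinib libraries of both lines held less than any library without the drug, with a log2 change of -2.49 (-2.80 to -2.23) in SKBR-3 and -4.64 (-5.12 to -4.28) in BT474m1. A pseudogene copy makes the BRCA1 level uncertain where reads were shared.

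BRCA2, which prepares the trimmed strand for pairing, was at 492, 50.5, 632 and 28.2 in SKBR-3 and at 459.7, 25.3, 375 and 45.5 in BT474m1, in the same order. BRIP1, a helicase that binds BRCA1, was at 219, 21.4, 168 and 2.75 in SKBR-3 and at 725, 54.2, 441 and 56.0 in BT474m1. For both genes the libraries with and without lapatinib were widely apart. As ratios of the values without the added 1, the falls of BRCA2 were 9.75-fold in SKBR-3 and 18.2-fold in BT474m1. Those of BRIP1 were 10.2-fold and 13.4-fold. BARD1, the partner of BRCA1, changed by -1.30 and -2.19. PALB2, which bridges BRCA1 to BRCA2, was at 373 with DMSO, 275 under lapatinib, 238 under JQ1 and 181 under the combination in SKBR-3, and at 513, 466, 337 and 255 in BT474m1. Every treated library held less than its DMSO library, and PALB2 was past 2-fold with both drugs alone, at -1.04 (-1.26 to -0.83) and -1.01 (-1.17 to -0.85), calls that other scalings and a pseudocount of 10 ended in 1 line or the other.

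**Figure D2:**
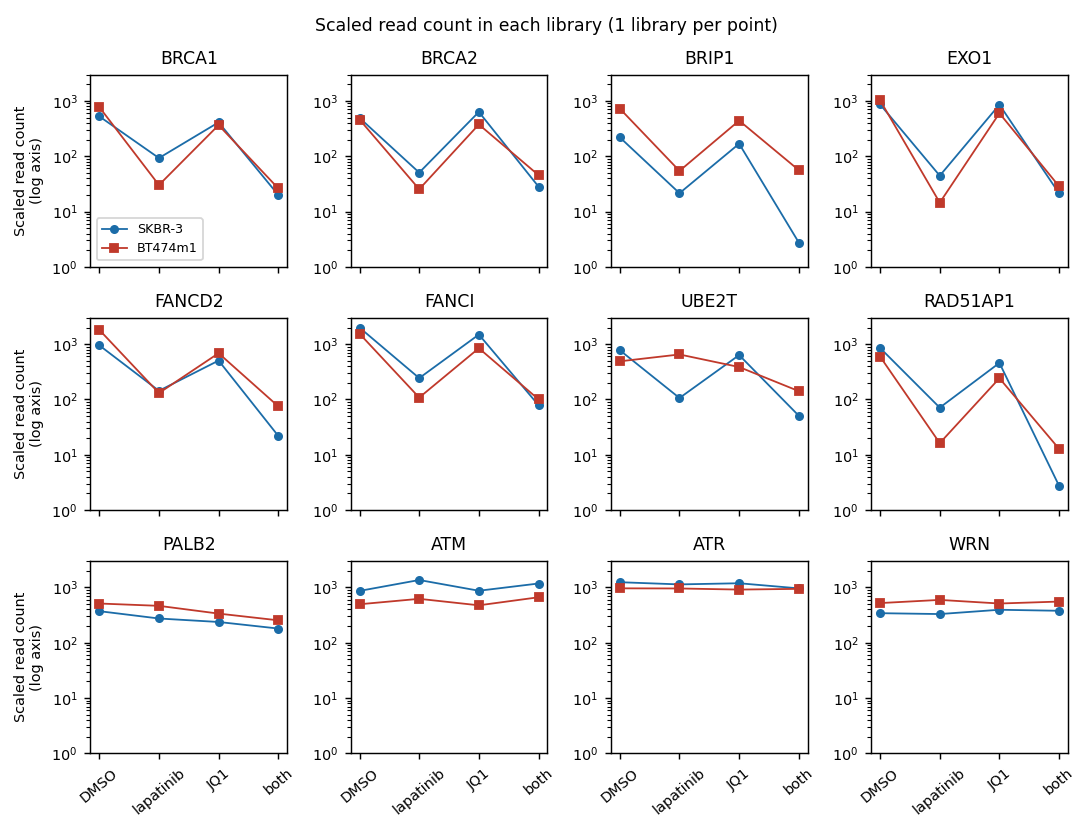
Normalised read count of 12 of the genes (log axis) with DMSO, lapatinib, JQ1 and both drugs in SKBR-3 (blue) and BT474m1 (red), 1 library per point; lines join the points of a cell line. BRCA1, BRCA2, BRIP1, EXO1, FANCD2, FANCI and RAD51AP1 dip in the libraries with lapatinib in both lines, UBE2T dips with lapatinib alone in SKBR-3 and not in BT474m1, ATR and WRN stay within 1.5-fold of DMSO, and ATM is highest in the libraries with lapatinib.

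The genes of strand exchange encode proteins that help the trimmed strand invade the sister, and lapatinib lowered 6 of these 7 genes in each line. The median change was -2.16 in SKBR-3 and -3.02 in BT474m1. RAD51AP1, which stimulates strand invasion, was at 854 with DMSO, 71.2 under lapatinib, 459 under JQ1 and 2.75 under the combination in SKBR-3, and at 595, 16.3, 243 and 12.8 in BT474m1. RAD54L, a motor protein that acts on DNA during strand exchange, was at 537, 23.7, 474 and 10.3 in SKBR-3 and at 179, 21.1, 97.6 and 11.7 in BT474m1. Both genes were lowest with both drugs in either line, and their falls with lapatinib were 12.0-fold and 36.6-fold for RAD51AP1 and 22.6-fold and 8.47-fold for RAD54L in SKBR-3 and BT474m1.

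RAD54B, a relative of RAD54L, was at 99.6, 21.5, 108 and 14.3 in SKBR-3 and at 548, 67.4, 505 and 98.5 in BT474m1. XRCC2, which acts early in strand exchange, was at 147, 28.3, 173 and 17.2 in SKBR-3 and at 379, 35.5, 258 and 56.6 in BT474m1. Both were lower with lapatinib whether or not JQ1 was present, by -2.16 and -3.01 for RAD54B and -2.34 and -3.38 for XRCC2 with lapatinib alone. XRCC3, which forms a complex with RAD51C, changed by -1.79 and -1.63. RAD51C ran from 45.2 to 135 in SKBR-3, against 1047 to 1888 in BT474m1, with a lapatinib change of -1.43 (-1.91 to -1.02) and -0.60 (-0.69 to -0.52). DMC1, which exchanges strands in meiosis, was low in SKBR-3 and in BT474m1 with lapatinib: it was at 10.7 with DMSO, 12.3 under lapatinib, 4.51 under JQ1 and 6.88 under the combination in SKBR-3, and at 61.3, 2.41, 16.4 and 1.17 in BT474m1. The last of these values rests on 2 reads, and the SKBR-3 values rest on 7 to 16 reads.

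The helicases and nucleases that take joined molecules apart formed 2 sets. BLM, the Bloom syndrome helicase, was at 533 with DMSO, 38.3 under lapatinib, 577 under JQ1 and 9.63 under the combination in SKBR-3, and at 427, 18.1, 265 and 24.5 in BT474m1. EME1, a subunit of the MUS81 nuclease, was at 52.7, 9.31, 51.9 and 2.42 in SKBR-3 and at 666, 84.2, 436 and 85.0 in BT474m1. Lapatinib lowered BLM by -3.77 (-4.24 to -3.39) and -4.49 (-5.14 to -4.04), EME1 by -2.38 and -2.97, and RECQL4, another helicase of the same family, by -3.10 and -1.93. EME1 overlaps LRRC59 on the reference, and LRRC59 changed by -1.19 and -1.13 with lapatinib, so that reads shared between them make the EME1 level uncertain.

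WRN, the Werner syndrome helicase, was at 343, 331, 396 and 379 in SKBR-3 and at 522, 596, 513 and 556 in BT474m1. It stayed within 1.5-fold of DMSO with every treatment in both lines. MUS81, the catalytic partner of EME1, ran from 240.1 to 404 in SKBR-3, against 221 to 437 in BT474m1, and changed with lapatinib by -0.27 and 0.06.

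Of the 8 genes of the Fanconi core complex, lapatinib lowered 6 in each line, with a median change of -1.34 in SKBR-3 and -1.62 in BT474m1. FANCA was at 334 with DMSO, 73.7 under lapatinib, 274 under JQ1 and 27.8 under the combination in SKBR-3, and at 577, 107, 348 and 112 in BT474m1. FANCB, which is encoded on the X chromosome, was at 95.9, 10.7, 107 and 6.19 in SKBR-3 and at 112, 6.63, 114 and 25.7 in BT474m1. These were the largest falls within the complex, at -2.16 and -2.42 for FANCA and -3.05 and -3.89 for FANCB. FANCC, FANCE and FANCG of the core complex and FANCM, which anchors it to DNA, changed by -1.09 to -1.40 (SKBR-3) and -1.09 to -1.99 (BT474m1).

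FANCL, the ubiquitin ligase of the complex, was at 143, 152, 152 and 103 in SKBR-3 and at 239, 227, 209.5 and 212 in BT474m1, and stayed within 1.5-fold of DMSO throughout. FANCF was at 151, 246, 197 and 251 in SKBR-3 and at 692, 554, 713 and 550.4 in BT474m1. Its lapatinib change was 0.70 (0.45 to 0.96) in SKBR-3 and -0.32 (-0.44 to -0.20) in BT474m1. The genes for the ligase and for its adaptor FANCF were thus the 2 of the core complex under 2-fold in both lines.

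FANCD2 and FANCI, the pair that receives ubiquitin, were lowered by lapatinib in both lines. FANCD2 was at 955 with DMSO, 144 under lapatinib, 506 under JQ1 and 22.0 under the combination in SKBR-3, and at 1819, 131, 687 and 75.2 in BT474m1. FANCI was at 1993, 244, 1495 and 79.0 in SKBR-3 and at 1545, 108, 846 and 101 in BT474m1. Both genes were lowest with both drugs in either line, and lapatinib alone lowered FANCD2 by -2.73 (-2.97 to -2.52) and -3.79 (-4.00 to -3.60) and FANCI by -3.03 and -3.82. FANCD2 has pseudogene copies and FANCI overlaps POLG on the reference, so their levels are uncertain where reads were shared.

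UBE2T, the conjugating enzyme that works with FANCL, had the widest difference between the lines in its lapatinib change among genes with the lower change in SKBR-3. It was at 777, 106, 636 and 50.9 in SKBR-3 and at 490.3, 652, 386 and 142 in BT474m1. Its lapatinib change was -2.86 (-3.13 to -2.61) in SKBR-3, against 0.41 (0.29 to 0.54) in BT474m1, where the value fell past 2-fold only with both drugs. NEIL3, a glycosylase that opens some crosslinks without the Fanconi pathway, was at 266, 13.0, 253 and 2.06 in SKBR-3 and at 189, 2.41, 127 and 5.83 in BT474m1. The libraries with lapatinib held 3 to 17 reads of NEIL3, and those without it held 263 to 401 reads.

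The changes with lapatinib in the 2 lines followed each other over the 38 genes (Pearson r = 0.777 across genes, which share 1 library per group and are not independent). The counting intervals of the 2 lines overlapped for 16 genes, lay wholly lower in SKBR-3 for 7 and wholly higher in SKBR-3 for 15. Over all genes they lay lower in SKBR-3 for 23.3% and higher for 24.8%. BRCA1, EXO1, RAD51AP1 and DMC1 were among those with the lower interval in BT474m1, and RAD54L, RECQL4 and UBE2T among those with the lower interval in SKBR-3.

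**Figure D3:**
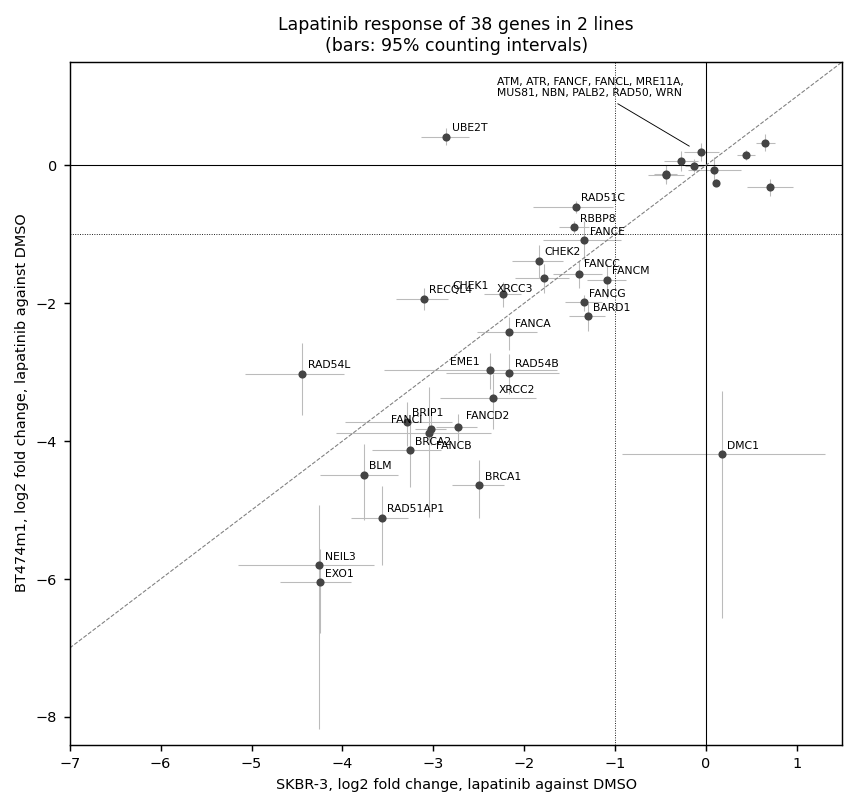
Log2 fold change with lapatinib against DMSO in SKBR-3 (horizontal axis) and BT474m1 (vertical axis), 1 point per gene for the 38 genes, with 95% counting intervals as bars; dotted lines mark a 2-fold fall and the dashed line marks equal change. The points run from near 0 down to -4.25 and -6.05 for EXO1 on both sides of the dashed line, with UBE2T above it (-2.86 and 0.41) and DMC1 far below it (0.18 and -4.19).

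The falls were set beside lists of other repair and cell cycle genes. Of 56 further genes of homologous recombination and the Fanconi pathway, lapatinib lowered 20 (35.7%) in SKBR-3 and 15 (26.8%) in BT474m1. Over all genes 9.44% and 8.06% were lowered. Lapatinib raised 0 of the 56 in SKBR-3 and 3 in BT474m1, beside 11.1% and 14% of all genes. The median was -0.37 in each line. Within this list POLQ, the polymerase of an alternative end joining route, was lowered by -3.98 and -4.13.

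In non-homologous end joining, which rejoins ends without a template, 2 of 10 genes were lowered in SKBR-3 and 0 in BT474m1, with medians of -0.32 and -0.39. In mismatch repair the counts were 2 of 7 and 0, with medians of 0.04 and -0.30. Nucleotide excision repair, which removes bulky lesions, had 0 of 18 lowered in SKBR-3 and 1 in BT474m1, and base excision repair had 2 of 18 and 0. Their medians lay between -0.33 and 0.07, nearer to all genes than to the 38 genes.

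Every gene of the 16 on an S phase list and of the 13 on a mitosis list was lowered in both lines. The medians were -2.58 in both lines for S phase genes, and -3.59 in SKBR-3 and -4.53 in BT474m1 for mitosis genes. CDC45, a part of the replicative helicase, was lowered by -4.22 and -5.76, and MKI67, the proliferation antigen Ki-67, by -3.97 and -5.62. The part of this fall in the change of the 38 genes was not tested.

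**Figure D4:**
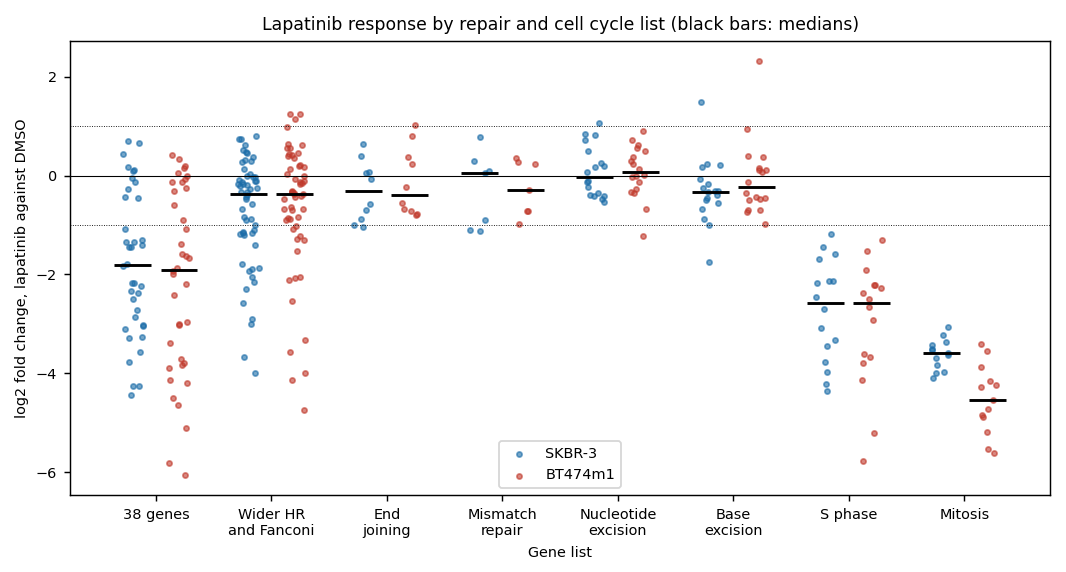
Log2 fold change with lapatinib against DMSO of each gene (points) in SKBR-3 (blue) and BT474m1 (red), by gene list, with black bars at the medians and dotted lines at 2-fold. The 38 genes have medians of -1.81 and -1.90 and reach from above 0 to -6.05, and the other repair lists have medians between -0.39 and 0.07. Of the 56 wider recombination and Fanconi genes, 20 in SKBR-3 and 15 in BT474m1 are lowered 2-fold or more. All S phase and mitosis genes lie below the lower dotted line.

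JQ1 alone left most of the 38 genes under 2-fold. It lowered 1 in SKBR-3 and 5 in BT474m1 and raised 0 in either line, beside 11.8% of all genes lowered in each line and 3.75% and 4.81% raised. The share of the 38 genes lowered was thus not above that of all genes in SKBR-3 and close to it in BT474m1. The median change was -0.12 in SKBR-3 and -0.50 in BT474m1, beside -0.08 and -0.06 over all genes. The median in SKBR-3 was -0.04 with scaling by the median of ratios and -0.26 with equal totals. The DMSO libraries are the same as for lapatinib.

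DMC1 was the gene lowered by JQ1 in SKBR-3, at -1.09 (-2.79 to 0.13) from 15 reads to 7, an interval that includes no change. In BT474m1 JQ1 lowered DMC1 by -1.84 (-2.49 to -1.35), FANCD2 by -1.40 (-1.49 to -1.32), RAD51AP1 by -1.29 (-1.45 to -1.15), BRCA1 by -1.08 (-1.21 to -0.96) and CHEK1 by -1.01 (-1.15 to -0.88). The call of CHEK1 ended with a pseudocount of 10 or scaling by the median of ratios. FANCD2 and RAD51AP1 also had the largest changes after DMC1 in SKBR-3, at -0.92 and -0.89. BRCA2 was at 0.36 (0.22 to 0.50) in SKBR-3 and at -0.29 (-0.43 to -0.15) in BT474m1. The interval in SKBR-3 lay wholly above that in BT474m1 for 18 genes and wholly below it for 0, beside 19.8% and 20.4% of all genes. These counts were not repeated under other scalings. Equal totals moved JQ1 changes by -0.15 in SKBR-3 (ATM) and by -0.02 in BT474m1 (FANCB), which narrows such gaps. Over the cell cycle lists the median JQ1 change was -0.35 and -0.79 for S phase and -0.43 and -1.02 for mitosis in SKBR-3 and BT474m1, and their part in the change of the 38 genes was not tested.

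Both drugs together were also set against DMSO. By this comparison 27 genes were lowered in SKBR-3 and 25 in BT474m1, and 0 were raised, beside 20.8% and 15.3% of all genes lowered and 10.8% and 14.2% raised. The medians were -2.18 and -1.93, beside -0.08 and 0.00 over all genes. Falls of 4-fold or more numbered 21 in SKBR-3 and 19 in BT474m1, beside 8.3% and 6.46% of all genes. The interval lay wholly lower in SKBR-3 for 17 genes and wholly higher for 6, beside 31.8% and 23.8% of all genes. The largest fall was that of RAD51AP1 in SKBR-3, at -7.83 (-10.16 to -6.92), with 4 reads left of 1193. In the same line NEIL3 was at -6.45 with 3 reads left of 372, BRIP1 at -5.87 with 4 left of 306, and BLM at -5.65 with 14 left of 745. Against JQ1 alone, both drugs lowered 25 genes in SKBR-3 and 23 in BT474m1 and raised 0, beside 12.3% and 7.27% of all genes lowered and 9.79% and 12.4% raised.

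Adding JQ1 to lapatinib gave different counts in the 2 lines. Against lapatinib alone, both drugs lowered 13 of the 38 genes and raised 0 in SKBR-3, beside 16.2% of all genes lowered and 3.22% raised. In BT474m1 they lowered 1, UBE2T, and raised 2, FANCB and NEIL3, beside 12.5% and 5.2% of all genes. The medians were -0.64 in SKBR-3 and -0.02 in BT474m1, beside -0.11 and -0.02 over all genes. Over the 38 genes the changes in the 2 lines had a Pearson r of 0.107. The interval lay wholly lower in SKBR-3 for 16 genes and wholly higher for 4, beside 26.4% and 16.8% of all genes.

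The 13 genes lowered in SKBR-3 were, from the largest fall, RAD51AP1, FANCD2, BRIP1, NEIL3, BRCA1, BLM, CHEK1, FANCI, EME1, FANCA, RAD54L, UBE2T and EXO1. The change was -4.27 (-6.60 to -3.29) for RAD51AP1, -2.65 (-3.29 to -2.15) for FANCD2, -2.16 (-2.85 to -1.62) for BRCA1 and -1.61 (-1.94 to -1.31) for FANCI. The same genes were at -0.32 (-1.22 to 0.52), -0.79 (-1.12 to -0.48), -0.19 (-0.81 to 0.41) and -0.10 (-0.41 to 0.20) in BT474m1. UBE2T was lowered in both lines, at -1.05 in SKBR-3 and -2.20 in BT474m1, from 652 to 142. With a pseudocount of 10 in place of 1, the 13 became 8, without RAD54L, EXO1, EME1, UBE2T and NEIL3. Scaling by the median of ratios also ended the SKBR-3 calls of RAD54L, EXO1 and UBE2T, and equal totals added FANCM.

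BRCA2, EXO1 and XRCC3 had intervals on opposite sides of 0 when JQ1 was added to lapatinib. BRCA2 was at -0.82 (-1.44 to -0.26) in SKBR-3 and 0.82 (0.29 to 1.42) in BT474m1, and EXO1 was at -1.02 (-1.74 to -0.41) and 0.94 (0.25 to 1.75). XRCC3 was at -0.45 (-0.85 to -0.06) and 0.82 (0.59 to 1.06). Scaling by the median of ratios moved RBBP8 by 0.16 in this comparison in SKBR-3. A shift of that size would take the SKBR-3 interval of XRCC3 across 0. NEIL3 was past 2-fold in opposite directions, at -2.19 (-5.07 to -0.87) in SKBR-3 and at 5.83 against 2.41 in BT474m1, but the latter rests on 10 reads against 4 and its log2 interval (-0.52 to 3.40) includes no change. FANCB was raised in BT474m1 by 1.81 (0.98 to 3.06), from 11 reads to 44. No difference between the lines could be tested over replicates.

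**Figure D5:**
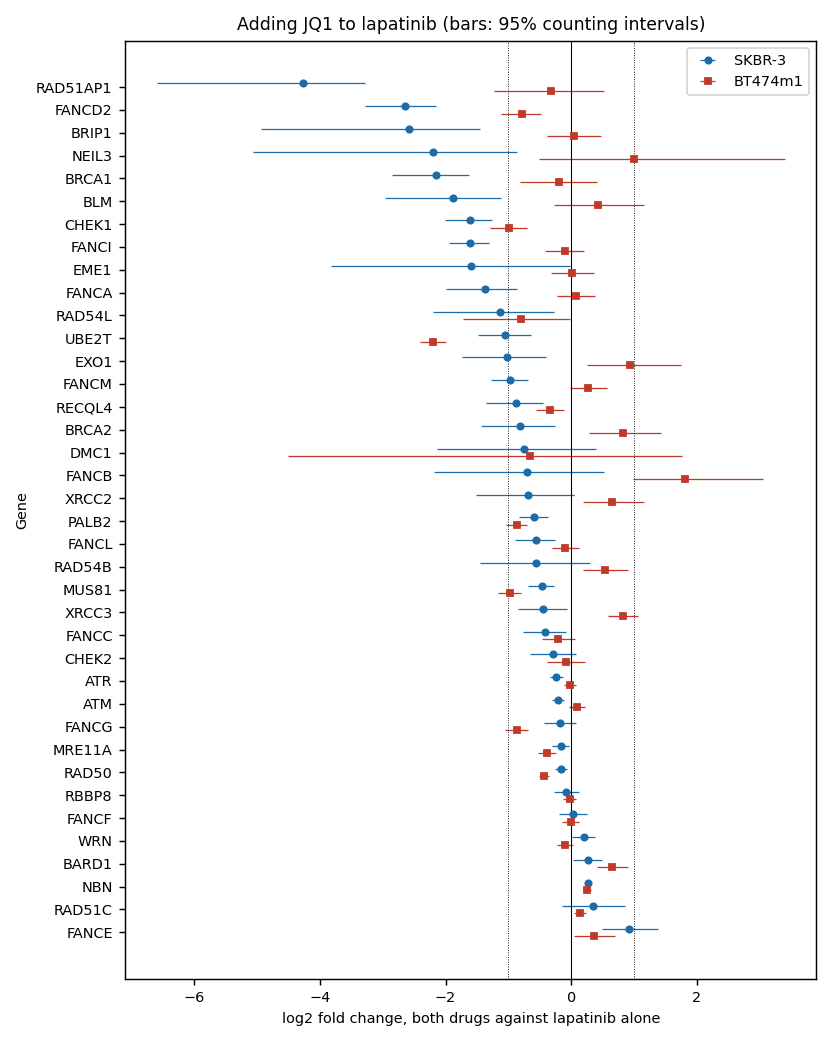
Log2 fold change of both drugs against lapatinib alone (horizontal axis) for each of the 38 genes (vertical axis), in SKBR-3 (blue circles) and BT474m1 (red squares), with 95% counting intervals as bars and dotted lines at 2-fold, sorted by SKBR-3. In SKBR-3 13 genes lie beyond the left dotted line, from RAD51AP1 at -4.27 to EXO1 at -1.02, and in BT474m1 only UBE2T does so, at -2.20.

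The cell cycle lists also gave different counts in the 2 lines when JQ1 was added. Both drugs against lapatinib lowered all 13 mitosis genes in SKBR-3 (median -2.44) and 0 in BT474m1 (median -0.10). They lowered 7 of the 16 S phase genes in SKBR-3 (median -0.90) and 1 in BT474m1 (median -0.07), where they raised 2. The part of these lists in the change of the 38 genes was not tested. Of the 56 further recombination and Fanconi genes, both drugs against lapatinib lowered 6 and raised 1 in SKBR-3 (median -0.08), and lowered 2 and raised 3 in BT474m1 (median 0.12). The non-homologous end joining, mismatch, nucleotide excision and base excision repair lists had medians between -0.23 and 0.03 over both lines.

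With DMSO, BT474m1 had 8 of the 38 genes at least 2-fold higher than SKBR-3 and 2 at least 2-fold lower, beside 26.8% and 15.6% of all genes, so neither share was above that of all genes. The 8 were RAD51C at 3.67 (3.46 to 3.91), EME1 at 3.63, RAD54B at 2.45, DMC1 at 2.41, FANCF at 2.19, BRIP1 at 1.72, FANCG at 1.66 and XRCC2 at 1.36. RAD51C was thus at 124 in SKBR-3 and 1591 in BT474m1, 12.8-fold higher. LRRC59, which overlaps EME1, was itself 2.41 higher on the log2 scale in BT474m1. NBN was lower in BT474m1 by -2.21 (-2.25 to -2.17), at 3049 against 14078, and RAD54L by -1.58 (-1.77 to -1.41), at 179 against 537. BRCA1, BRCA2, PALB2 and BARD1 differed between the lines by -0.10 to 0.56.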

How the data were processed

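The deposited value of a gene is a signal, namely an RSEM estimate of its reads, which the authors scaled to an upper quartile of 1000 over each library's genes above 0. Each of the 8 tables is 1 library. The submitters' processing notes name hg19, Picard 1.88, SAMtools 1.2, RSEM, DESeq, R 3.2.2 and DESeq2 1.12.3. The study's methods name another assembly, aligner and quantifier, so the build and aligner behind these tables are uncertain. The labels name 2 library kits, of which 1 keeps the strand, so that reads of overlapping genes may not be told apart. Of the 38 genes, 9 overlap a kept protein-coding gene on the reference (ATM, EME1, FANCA, FANCC, FANCI, FANCL, MRE11A, RAD54L and XRCC3) and 6 have a named pseudogene copy (BRCA1, CHEK2, FANCD2, MRE11A, RAD51AP1 and RBBP8).

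The tools were Python 3.11.15, matplotlib 3.10.9, numpy 2.4.6, scipy 1.17.1 and pandas 2.3.3. Genes at 10 or more in at least 1 library were kept, which removed 6102. Changes are differences of log2(value + 1), called at 2-fold, with no test within a line because each group held 1 library. The value of 1 read, found as the common step between values, was 0.471 to 0.766, and 83.8% to 85.2% of values above 0 were whole reads within 0.02. A 95% Clopper-Pearson interval was taken from those reads. A floor of 3 reads was 1.41 to 2.30 in value. PCR reads that carry no molecular identifier are not independent molecules, so both cover the counting error alone.

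The 38 genes and the other lists were chosen with earlier results of these data known. Of 139 further list genes 138 were found, 16 of them by Entrez ID. Values in every library were given for genes lowered 4-fold by lapatinib in both lines, changed in opposite directions between lines, changed by JQ1 in both lines, or within 1.5-fold of DMSO throughout, and for BRCA1, BRCA2, PALB2, ATM, ATR, CHEK1, CHEK2, FANCD2 and FANCI. Values in every library of UBE2T and FANCF were added after values were seen. The 3 most changed members of each other list could be named, of which 1 is not reported here. Promoters were taken from outside chromosome 8. Alternatives were equal totals or the median of ratios as the scaling, a pseudocount of 10, a filter at 100 or none, calls whose interval excluded no change, and the mean in place of the median. The calculations were tested on simulated data.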

Additional observations from a re-analysis of the deposited data

Results flagged for a closer look

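UBE2T changed in opposite directions between the lines with lapatinib, at -2.86 in SKBR-3 against 0.41 in BT474m1 on the log2 scale, with intervals on opposite sides of 0. EXO1 did so when JQ1 was added to lapatinib, at -1.02 in SKBR-3, against 0.94 in BT474m1. The difference between the lines was not tested for either gene. With a pseudocount of 10 and with scaling by the median of ratios, the change of EXO1 in SKBR-3 was no longer past 2-fold.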

How the results depend on the processing

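No paired analysis was possible within a line because each group held 1 library, and for the same reason no library could be left out. A model across the lines, with libraries matched by line and drug, was not fitted. Most of the counts and medians over the 38 genes moved little. The median of both drugs against lapatinib in BT474m1 was -0.02, and 0.01 with the median of ratios, and no other median turned its direction. With JQ1 in SKBR-3 the 1 gene lowered became 3 with equal totals and 0 with a pseudocount of 10, with a filter at 100 or where the interval had to exclude no change. With both drugs against lapatinib in SKBR-3 the 13 lowered became 8 with a pseudocount of 10. There the median of ratios ended the calls of RAD54L, EXO1 and UBE2T, and the 0 raised became 1. In BT474m1 the 2 raised became 1 with a pseudocount of 10 or the interval required. The mean in place of the median was -2.63 for both drugs against DMSO in SKBR-3, -2.46 for both drugs against JQ1 in SKBR-3 and -2.13 for lapatinib in BT474m1. The median for both drugs against JQ1 in BT474m1 was -1.53, and -1.31 with a pseudocount of 10. That of BT474m1 against SKBR-3 was 0.35, and 0.18 with the median of ratios, where the median over all genes went from 0.21 to 0.05. Equal totals moved the median over all genes with JQ1 in SKBR-3 from -0.08 to -0.22. Scaling by the median of ratios moved that of both drugs against lapatinib in SKBR-3 from -0.11 to 0. The cause of these differences was not tested. Changes that rest on 16 reads or fewer in a library have wide intervals, such as those of NEIL3, DMC1, EME1 and FANCB, and of BRIP1 and RAD51AP1 with both drugs in SKBR-3.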

Other observations

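Genes beside those that differed most between the lines with DMSO were also read, as the 10 kept genes on each side in the order of the reference. Beside RAD51C on chromosome 17, 18 of 20 neighbours were at least 2-fold higher in BT474m1, with a median log2 difference of 3.30. Beside EME1 on chromosome 17 the count was 17 of 20 with a median of 2.32, and beside RAD54B on chromosome 8 it was 16 of 20, with 2 lower and a median of 2.62. BRIP1, also on chromosome 17, had 11 of 20, with 2 lower and a median of 1.77. Around NBN on chromosome 8, 10 of 20 neighbours were at least 2-fold lower in BT474m1 and 5 were at least 2-fold higher, with a median of -1.06. Around FANCF on chromosome 11, 6 were higher and 4 lower, with a median of 0.03. Beside DMC1 8 were higher and 2 lower, with a median of 0.51, and beside XRCC2 8 were higher and 0 lower, with a median of 0.57. FANCG had 6 higher and 5 lower, with a median of 0.55, and RAD54L 0 higher and 5 lower, with a median of -0.26. Over all genes 26.8% were higher and 15.6% lower. DNA copy number was not measured in these files, and its part was not tested.

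Of the 38 genes, those with intervals on opposite sides of 0 in the 2 lines also included FANCF with lapatinib (0.70 in SKBR-3, -0.32 in BT474m1), NBN with lapatinib (0.11 and -0.25), RECQL4 with JQ1 (0.15 and -0.41) and RAD50 with both drugs against DMSO (0.27 and -0.28). All of these were under 2-fold, and the differences were not tested. Equal totals moved the JQ1 change of ATM in SKBR-3 by -0.15, and a shift of that size would take the SKBR-3 interval of RECQL4 across 0.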
